A study of Danio rerio with 4 samples.

Results

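Isolated 5-hydroxymethylcytosine (5hmC) regions of the embryonic zebrafish (Danio rerio) heart were marked in both capture libraries and had no other peak of either library within 20000 bp on either side. They were found by merging peaks of the 2 captures that overlapped by at least 1 bp and keeping merged regions with a peak from each list. Chromosome 4 from 28 Mb on was left out. The rule gave 957 isolated regions among 110099 merged regions, or 0.869% (Wilson interval 0.816 to 0.926%), and the other 109142 are called non-isolated here. Peak positions alone chose the regions, so their distances to other peaks describe the choice and are no finding.

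The series held 4 samples of wild-type hearts dissected at 48 hours post fertilisation, 2 captures and 2 inputs. The labels give AB as the strain background, while the growth protocol derives the embryos from crosses of AB and TU, and no treatment was applied. Each biological group pooled 40 or more hearts, so a pool mixed all cell types of the heart and many animals, and nothing in the labels tells whether both pools stem from 1 clutch, so the spread between replicates may be technical. Input libraries were not analysed here. The captures had 145501 peaks (replicate 1) and 145893 peaks (replicate 2), called for each library on the danRer7 genome build, on all 25 chromosomes. The labels state about 30M reads per library, and no read number behind a single peak is known.

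5hmC is made when TET dioxygenases oxidise 5-methylcytosine, and it is an intermediate on the way to unmethylated cytosine as well as a stable base in some tissues. In vertebrate tissues it is known to gather at enhancers and over the bodies of transcribed genes, so that marked sites often lie close together along a gene. In zebrafish, Tet2 and Tet3 make most of the 5hmC of the embryo. No gene model of the danRer7 build was used here, so regions are given by position and none is assigned to a gene.

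Isolated regions scored lower than non-isolated ones in both captures. The score is a number given by the authors' peak caller, starts at 50.0 in both lists and has no stated scale. Peak names carry the name of the caller MACS, so the score may be a p-value on a log scale. Ratios and fold differences of scores would then be those of log p-values, and they are not ratios of 5hmC. In replicate 1 the median score was 89.6 in isolated regions (quartiles 65.9 and 129.6) and 124.7 in non-isolated regions (quartiles 82.2 and 201.1), a ratio of 0.719. In replicate 2 the medians were 93.5 (quartiles 71.8 and 131.0) and 131.9 (quartiles 85.2 and 215.8), a ratio of 0.709. The interquartile ranges overlapped widely, so many isolated regions scored as high as the typical non-isolated one. The 2 lists gave ratios that differed by less than 0.01. With 1 condition and 2 libraries no test between the classes was possible, since regions of a library are not replicates.

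**Figure D1:**
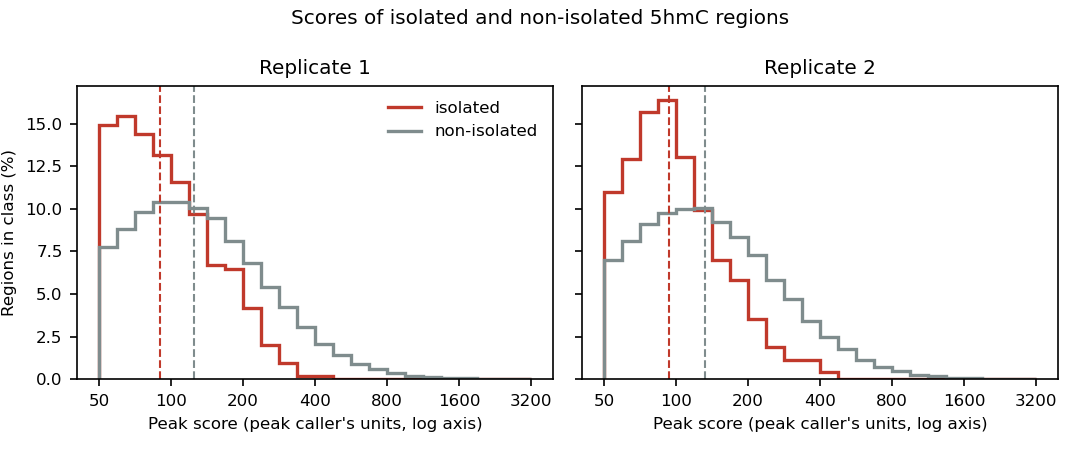
Percentage of regions (y axis) by peak score (x axis, log scale, the peak caller's units) in each capture, for 957 isolated and 109142 non-isolated regions, with dashed lines at the medians. Isolated regions lie towards lower scores than non-isolated ones and none lies above 467.2, while non-isolated regions extend to 3166.

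The upper part of the score range was nearly empty of isolated regions. Scores at or above the list median in both captures were held by 218 of 957 isolated regions (22.8%), and by 47.6% of all merged regions. Non-isolated regions in sparse stretches came near the isolated share, with 26.7% at 10 to 20 kb from the nearest peak and 32.3% at 5 to 10 kb. Scores below the median in both captures were held by 451 isolated regions (47.1%), against 25.6% of all merged regions. In the top 25% of both lists stood 51 isolated regions (5.33%), against 22.4% of all merged regions. In the top 10% of both lists stood 8 (0.836%, Wilson interval 0.424 to 1.64%), against 8.46% of all. The highest isolated scores were 458.7 in replicate 1 and 467.2 in replicate 2. No isolated region reached 500 in both lists, which allows a share of up to 0.313% when 3 counts of 957 are taken as the limit (Wilson upper limit 0.400%), whereas 2395 merged regions (2.18%) did.

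The isolated regions strongest in both captures were 1228 to 4363 bp wide, all above the isolated median of 1211 bp given below. Picked by their mean score rank over both lists, the 10 strongest lay on 8 chromosomes, so that high ranks follow from the choice. First was chromosome 7, 50327937 to 50329677, a region 1741 bp wide that scored 458.7 in replicate 1 and 440.1 in replicate 2. Its nearest peaks lay 34.8 kb to the left and 42.3 kb to the right. Chromosome 16 held the second, 57029263 to 57030864 (1602 bp, scores 409.4 and 399.2), and the fourth, 56094058 to 56097284 (3227 bp, scores 291.0 and 406.4). Between them stood chromosome 12, 10004443 to 10006601, with scores of 356.6 and 387.7. Each of these 4 ranked above 90% of the peaks of its list in both captures.

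The other 6 of the 10 were on chromosomes 13 (18458385 to 18462747), 3 (48195244 to 48196471), 17 (24645268 to 24647924 and 51590090 to 51591563), 1 (21670702 to 21672378) and 5 (71682330 to 71684760). The region on chromosome 5 had the highest replicate 2 score of all isolated regions, 467.2, but 226.6 in replicate 1. The surroundings of the 2 strongest regions were counted, and both had other peaks beyond their free margin. How many peaks a span of this size holds elsewhere was not counted, so these numbers are not shown to be high. Within 250 kb on either side of the middle of the chromosome 7 region there were 48 peaks of replicate 1 and 44 of replicate 2, itself included, and around the chromosome 16 region at 57029263 there were 41 and 43.

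**Figure D2:**
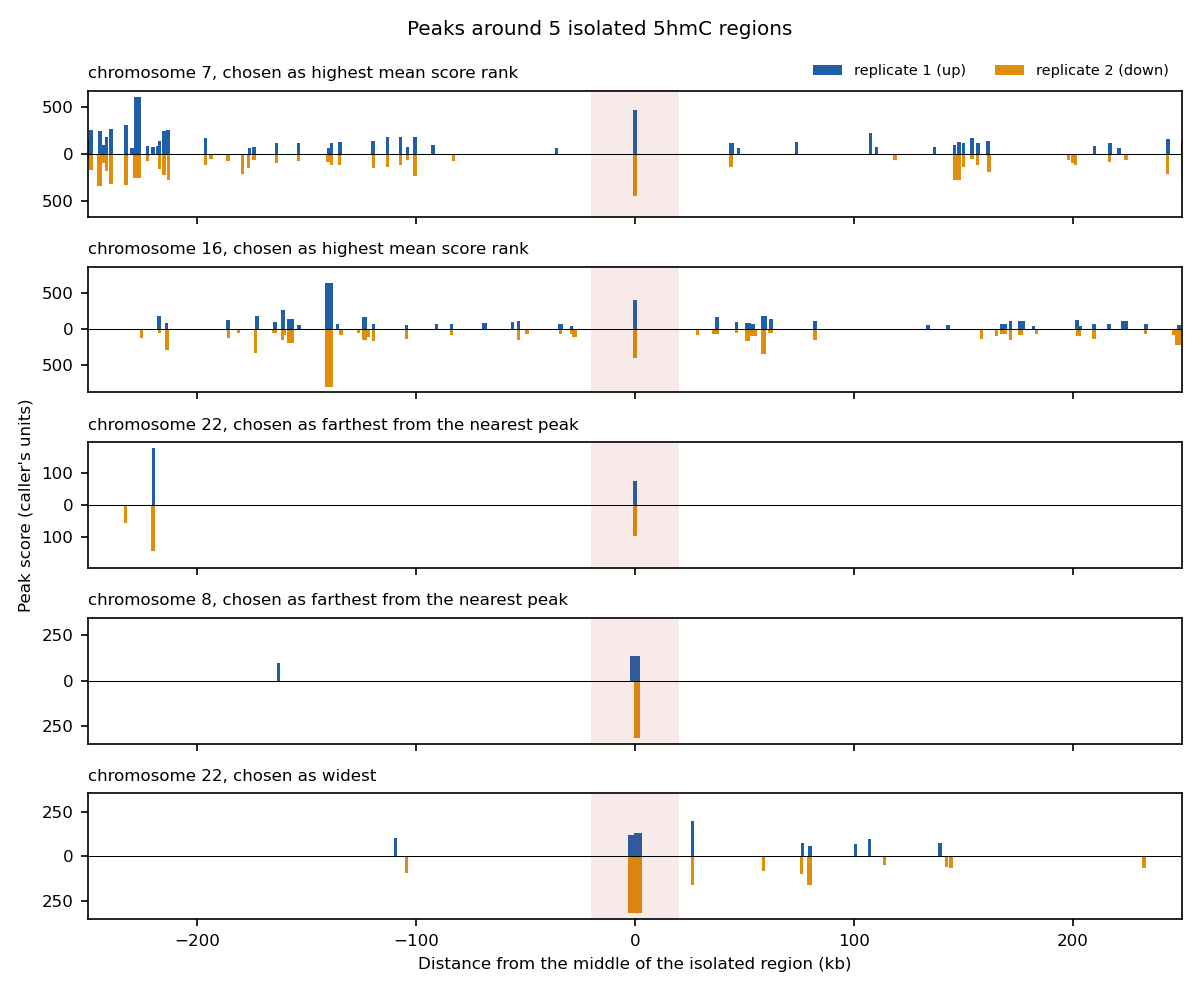
Peaks of replicate 1 (upward bars) and replicate 2 (downward bars) within 250 kb of the middle of 5 isolated regions, with the peak score on the y axis (a scale for each panel) and the distance in kb on the x axis; bars are drawn at least 1.5 kb wide, and the shaded band spans 20 kb to either side of the middle. The strongest regions of chromosomes 7 and 16 sit among 41 to 48 peaks per list, and the chromosome 22 region farthest from its nearest peak sits among 2 and 3.

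Isolated regions were also narrower. Their median merged width was 1211 bp (quartiles 972 and 1643 bp), against 1439 bp (quartiles 1093 and 2005 bp) in non-isolated regions, a ratio of 0.842. The bases under peaks of a single list gave similar ratios, with medians of 1074 and 1263 bp in replicate 1 and 1125 and 1332 bp in replicate 2. A width over 3000 bp was reached by 33 isolated regions (3.45%), against 7.69% of all merged regions, and a width over 5000 bp by 3 (0.313%), against 1.24% of all. Nearly every isolated region was simple in structure: 940 (98.2%) were made of 1 peak in each list, against 94.7% of all merged regions. Merging needs overlapping peaks, and a region that joins several peaks is wider by construction.

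The widest isolated region was chromosome 22, 29202284 to 29208836 (6553 bp), with 2 peaks in replicate 1 (higher score 129.6) and 1 in replicate 2 (score 320.9). Next were chromosome 1, 26655774 to 26661224 (5451 bp, scores 104.0 and 290.1), and chromosome 24, 11805183 to 11810263 (5081 bp, scores 204.2 and 338.1). All 3 were 2 peaks in replicate 1 and 1 peak in replicate 2, and all 3 scored higher in replicate 2. Of the 10 widest, 1 was also among the 10 strongest, the chromosome 13 region at 18458385 (4363 bp, scores 317.9 and 340.8). The 4363 bp came from replicate 2, while the replicate 1 peak covered 1920 bp. A wide isolated region could score low: chromosome 19, 13787255 to 13792254, was 5000 bp wide with scores of 56.9 and 77.3.

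Score and width went together less closely in isolated regions. Spearman's rho of score and merged width across the isolated regions was 0.25 in replicate 1 and 0.24 in replicate 2, against 0.41 and 0.44 across non-isolated regions. Regions of a list share its library and caller, so these are descriptions without a p-value. Isolated regions also span a narrower range of score and of width, and the part of this in the lower rho was not tested. The lower scores were present at every width. Merged regions were divided into 5 classes of equal size by width. In the narrowest class, 1027 bp or less, the median replicate 1 score was 79.7 in 294 isolated regions and 91.3 in non-isolated ones, a ratio of 0.872, and the replicate 2 ratio was 0.927. In the widest class, from 2181 bp, it was 117.3 in 101 isolated regions and 211.8 in non-isolated ones, a ratio of 0.554, and the replicate 2 ratio was 0.541. The gap in score between isolated and non-isolated regions was thus larger in the widest class than in the narrowest in both lists. The widest class reached 34508 bp, but no isolated region exceeded 6553 bp, so widths were not matched within it. In the narrowest class the medians lay nearer to 50.0, where both lists start. The part of either in this contrast was not tested.

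The score was lower by degrees with distance to the nearest peak, and no step appeared at the 20 kb limit. Regions within 1 kb of another peak had median scores of 138.7 in replicate 1 and 148.7 in replicate 2. At 2 to 5 kb the medians were 112.9 and 117.4, and at 10 to 20 kb they were 92.2 and 98.8. The 891 isolated regions at 20 to 50 kb had medians of 90.6 and 92.7, and the 66 beyond 50 kb had 79.7 and 94.5. Width followed the same order over these classes, with medians of 1563, 1355, 1250.5, 1218 and 1169.5 bp. Among the isolated regions themselves the distance hardly ordered the score, with Spearman's rho across regions of -0.04 in replicate 1 and -0.05 in replicate 2.

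**Figure D3:**
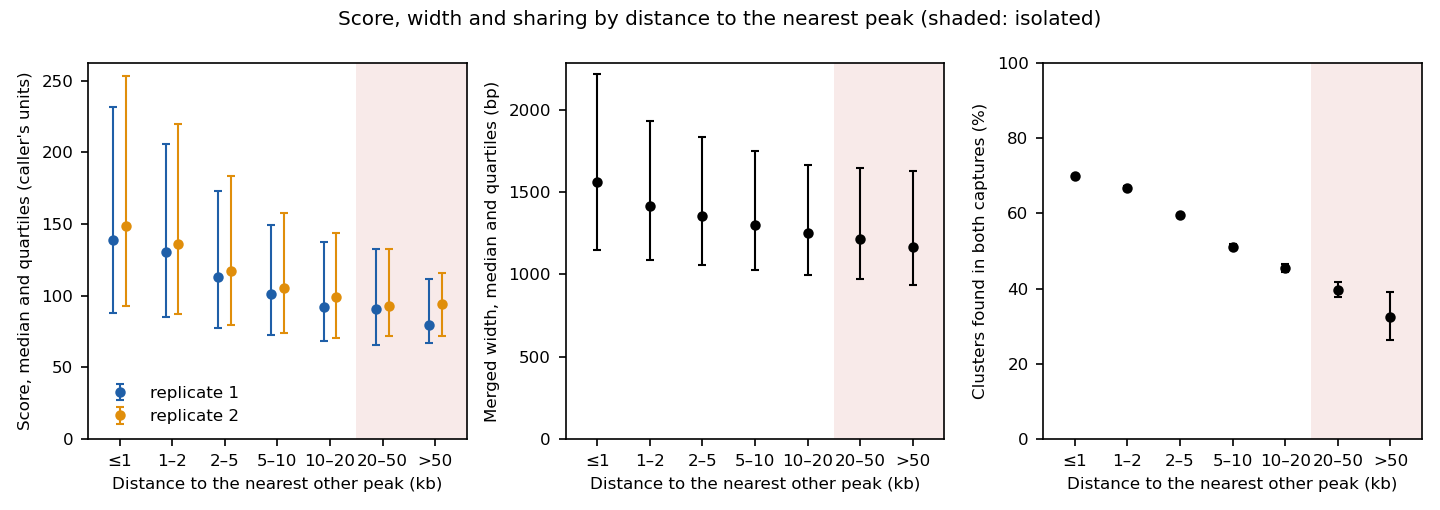
Peak score in both captures (left, the caller's units), merged width (middle, bp) and the percentage of clusters of overlapping peaks found in both captures (right) against the distance in kb to the nearest other peak. Points are medians with quartiles in the left and middle panels and percentages with Wilson intervals in the right panel; the shaded classes hold the isolated regions, and all 3 measures decline from the left without a step at 20 kb, except that the replicate 2 score does not decline beyond 50 kb.

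These are the regions closest to the limit on either side. Just above it stood chromosome 1, 9906739 to 9907598 (nearest peak at 20008 bp, scores 238.7 and 103.9), chromosome 21, 43417443 to 43418529 (20009 bp, scores 93.9 and 57.7), and chromosome 6, 22673883 to 22675049 (20012 bp, scores 77.7 and 161.7). Just below it stood chromosome 6, 17062632 to 17064110 (19996 bp, scores 123.9 and 139.5), chromosome 24, 37738857 to 37739453 (19994 bp, scores 178.5 and 220.9), and chromosome 16, 3139111 to 3140713 (19936 bp, scores 271.1 and 178.2).

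Most isolated regions were only moderately far from other peaks. The median distance to the nearest peak was 26280 bp (quartiles 22500 and 33965 bp), and 404 of the 957 (42.2%) had a peak within 25 kb. On the farther side the median was 44027.5 bp over the 956 regions with a peak on both sides; 1 region was the last of its chromosome. The nearest peak was more than 50 kb away for 66 regions (6.90%) and more than 100 kb away for 6. For 547 regions (57.2%) that nearest neighbour was found in 1 capture alone, and for 410 (42.8%) in both. Single-capture peaks thus set the distance of most isolated regions. Of all non-isolated clusters of overlapping peaks, 63.9% were found in both captures, but of those at 10 to 20 kb from another peak 45.5% were. These are shares of clusters, not of nearest neighbours. Neighbours of non-isolated regions were not counted, so whether the 57.2% is particular to isolated regions is not known. When merged regions of both captures alone could end isolation, 4712 regions qualified.

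The most remote region was chromosome 22, 28696409 to 28697309, with 219.0 kb free of peaks on its left and 398.4 kb on its right. It was 901 bp wide and scored 75.3 in replicate 1 and 97.7 in replicate 2, below the median of either list. It was followed by chromosome 7, 18219265 to 18220356 (nearest peak at 161.6 kb, scores 67.4 and 55.3), and chromosome 8, 40198122 to 40203055 (160.0 kb, scores 132.5 and 311.7). That region was 4934 bp wide, and was the only one of the 10 most remote to be among the 10 widest. Chromosome 8 held 4 of the 10 most remote regions, among them the neighbours at 35763430 and 35862573, with 98.3 kb free of peaks between them. Apart from the region at 40198122, the 10 most remote were 788 to 1275 bp wide and scored 118.7 or less in both captures.

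Isolated regions sometimes followed one another along the chromosome. Another isolated region was the next peak on at least 1 side for 195 of the 957. The rule picks regions in sparse stretches, which favours such runs, and no like count was made for other regions. The 195 regions formed 94 runs, of which 88 were pairs, 5 had 3 regions and 1 had 4. The run of 4 was on chromosome 20, 14291302 to 14392535 (101.2 kb), and its scores ranged from 65.1 to 347.1 in replicate 1 and from 55.5 to 257.5 in replicate 2. Chromosome 10 had runs of 3 at 15109967 to 15193275 and at 15354653 to 15404754.

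A smaller percentage of isolated than of other clusters was found in both captures. A cluster is a set of overlapping peaks from either list or both. Of 2447 clusters with no other peak within 20000 bp, 957 (39.1%, Wilson interval 37.2 to 41.1%) had peaks of both captures, 705 were found in replicate 1 alone and 785 in replicate 2 alone. Of 170798 non-isolated clusters, 109142 (63.9%, interval 63.7 to 64.1%) had peaks of both. These intervals treat clusters as independent and cover counting error only. The percentage declined with distance, with 69.9% of clusters within 1 kb of another, 45.5% at 10 to 20 kb and 32.4% (interval 26.3 to 39.0%) beyond 50 kb. Clusters of 1 capture had low median scores whether isolated or not. In isolated ones the median score was 65.0 where replicate 1 alone had them and 65.4 where replicate 2 did, and in non-isolated ones it was 67.8 and 69.5. The highest scores were 204.1 and 241.5 in isolated ones, but 770.4 and 589.5 in non-isolated ones. Isolated clusters of both captures had the medians of 89.6 and 93.5 given above.

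At like scores the percentages found in both captures were again lower for isolated clusters. The Wilson intervals cover counting error only, and clusters of a library are not replicates, so the intervals do not test the difference. Isolated and non-isolated clusters were compared within score classes, over clusters with 1 peak in the list concerned. Among replicate 1 peaks scoring 50 to 60, 152 of 418 isolated ones (36.4%, interval 31.9 to 41.1%) were also found in replicate 2, against 47.8% of non-isolated ones. Among those scoring 100 to 150, 229 of 292 isolated ones (78.4%, interval 73.4 to 82.8%) were, against 87.3% of non-isolated ones. At 200 or more the percentages were 98.6% of 71 and 99.4%, within the interval of 92.4 to 99.8%. Replicate 2 peaks showed the same order: 27.9% of 398 isolated peaks and 45.4% of non-isolated peaks at 50 to 60, 71.5% of 340 and 84.5% at 100 to 150, and 98.7% of 78 and 99.2% at 200 or more. Peak density differs between the classes by construction, and its part in the difference was not tested.

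**Figure D4:**
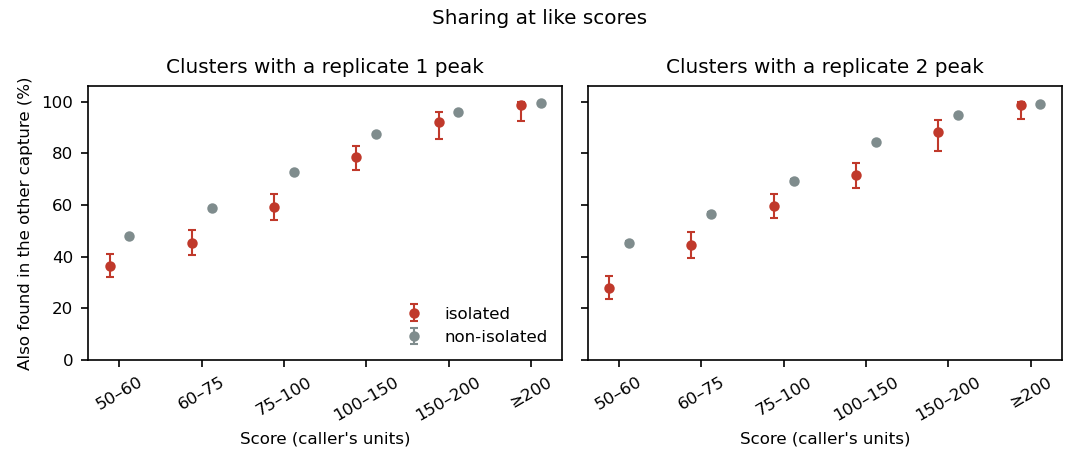
Percentage of clusters also found in the other capture (y axis, Wilson intervals) by score class (x axis, the caller's units), for isolated and non-isolated clusters with 1 peak in replicate 1 (left) or replicate 2 (right). Isolated clusters lie below non-isolated ones in each class, by 17.5 points at most and by less than 1 point at scores of 200 or more.

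Where both captures marked an isolated region, its edges were placed as closely as elsewhere while its score was ordered less alike by the 2 captures. Over the 940 isolated regions with 1 peak in each list, the median Jaccard index, the shared bases over the bases of either peak, was 0.856, against 0.867 in 103284 such non-isolated regions. The peak midpoints lay a median of 57.5 bp apart in isolated and 62.5 bp in non-isolated regions, and Spearman's rho of the peak widths was 0.81 in both. Spearman's rho of the scores was 0.44 across isolated regions and 0.67 across non-isolated ones. Isolated regions span a narrower range of scores. Over the 102445 non-isolated regions that scored no higher than the highest isolated ones, rho was 0.60. This limit left out only 6.14% of non-isolated regions, so the score ranges stayed unlike. It cannot tell how much of the difference in rho comes from the range. By distance class rho was 0.72 within 1 kb, 0.49 at 10 to 20 kb and 0.42 beyond 50 kb.

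Among regions of both captures, large disagreements in score were about as frequent in isolated regions as elsewhere. The replicate 2 score over the replicate 1 score had quartiles of 0.779 and 1.37 in isolated regions and 0.773 and 1.44 in non-isolated ones. Scores at least 2-fold apart were found in 123 isolated regions (12.9%, interval 10.9 to 15.1%), against 14.3% of all merged regions. Both lists start at a score of 50.0, so a low-scoring region has little room to score lower in the other list. This limits isolated regions more, since they score lower, and the effect on these shares was not tested. Furthest apart was chromosome 25, 25869188 to 25871101, which scored 76.8 in replicate 1 and 446.3 in replicate 2. Chromosome 9, 19654193 to 19655193, scored 51.1 and 215.6, and chromosome 3, 7074052 to 7075391, scored 56.1 and 200.5. On chromosome 8, the region 44424608 to 44425979 went the other way with 231.6 and 60.6, while 23235269 to 23239606 scored 65.0 and 240.7.

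To read the score in a list whose gaps did not set isolation, isolation was also judged in 1 capture alone. A score could be read only where the other list had an overlapping peak, which was less frequent for isolated peaks. The effect of this on the ratios was not tested. Of replicate 1 peaks, 3607 had no other replicate 1 peak within 20000 bp. Replicate 2 had an overlapping peak for 2168 of them (60.1%), against 79.5% of the other replicate 1 peaks. The overlapping replicate 2 peaks had a median score of 93.8 for isolated and 135.4 for non-isolated replicate 1 peaks, a ratio of 0.693. Judged in replicate 2, 2029 of 3497 isolated peaks (58.0%) were overlapped in replicate 1, against 78.0% of the others. Their replicate 1 scores had medians of 90.3 and 126.4, a ratio of 0.715. Of the overlapped peaks that were isolated in one list, 43.5% (judged in replicate 1) and 46.4% (judged in replicate 2) had partners isolated in the other. Among overlapped non-isolated peaks these shares were 0.992% and 1.12%. This comparison was chosen after the other values had been seen.

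Isolated regions were spread over all 25 chromosomes, in shares that ran against the density of 5hmC regions, which the rule favours. They numbered 6 to 72 per chromosome, with a median of 36 and a mean density of 0.723 per Mb. Chromosome 1 had the highest share, 62 of 4028 merged regions (1.54%, interval 1.20 to 1.97%), followed by chromosomes 3 (1.29%), 22 (1.28%), 8 (1.23%) and 5 (1.23%, the largest number, 72). The intervals of these 5 overlapped. All intervals given for chromosomes treat regions as independent and cover counting error only, although isolated regions sometimes followed one another. The first 28 Mb of chromosome 4 had the lowest share, 6 of 3255 (0.184%, interval 0.0845 to 0.402%), then chromosome 19 with 19 of 4395 (0.432%, interval 0.277 to 0.674%), whose interval overlaps that of chromosome 4. The ratio of the highest to the lowest share was 8.35, and 3.56 without chromosome 4.

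Across the 25 chromosomes, Spearman's rho of the isolated share and of merged regions per Mb was -0.83, given as a description, since sparse placement makes isolation by the rule more frequent. The lower scores were present on every chromosome. The ratio of isolated to non-isolated median scores was below 1 on 25 of 25 chromosomes in both lists, from 0.549 to 0.831 in replicate 1 and from 0.602 to 0.892 in replicate 2. The width ratio was below 1 on 24 of 25, from 0.622 to 1.02. Some extremes rest on few regions: 0.549 and 0.622 are from chromosome 4, with 6 isolated regions, and 1.02 from chromosome 19, with 19.

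**Figure D5:**
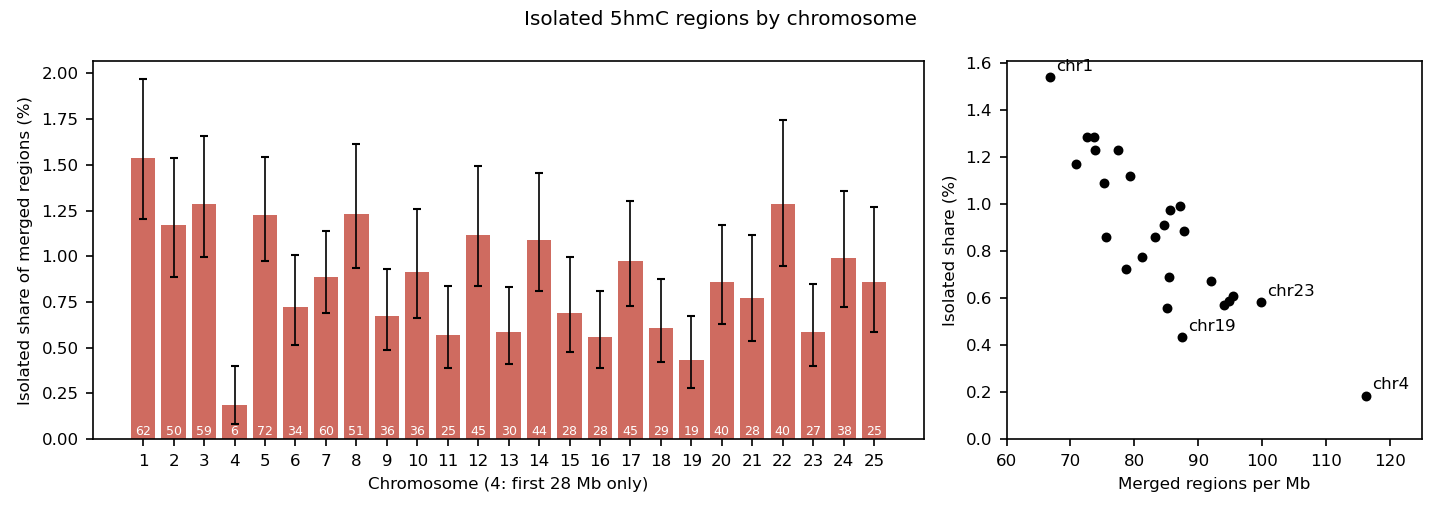
Left, the isolated share of merged regions per chromosome (bars from 0, in %, with Wilson intervals and the number of isolated regions inside each bar). Right, the same share against merged regions per Mb, with 1 point per chromosome; chromosome 1 has the highest share, 1.54%, and the first 28 Mb of chromosome 4 the lowest, 0.184%.

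Within chromosomes the isolated regions were spread over many windows, and whether they clump was not tested. Of 1334 windows of 1 Mb, 599 held at least 1, and 364 held exactly 1. Windows with 5 or more numbered 9 and held 48 isolated regions (5.02%). The most in a window was 6, on chromosome 1 at 27 to 28 Mb, chromosome 3 at 0 to 1 Mb and chromosome 10 at 15 to 16 Mb. Windows around isolated regions held a median of 52 merged regions (quartiles 34 and 78), against 99 (quartiles 72 and 126) around non-isolated ones, which the rule favours. Of the isolated regions, 91 (9.51%) stood in windows with 100 or more merged regions, and the fullest such window had 165. The share of non-isolated regions in such windows was not counted, but their median of 99 lies just below that limit.

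Along the chromosome axis, chromosome 4 left out, the outermost 2 Mb at either end held 54 of 951 isolated regions (5.68%, interval 4.38 to 7.34%), against 8.37% of non-isolated ones. The central 20% of the chromosome length held 15.1% of isolated and 23.7% of non-isolated regions. The outermost 10% at both ends held 20.7% of isolated and 19.6% of non-isolated regions, and the next 10% inwards held 20.8% and 17.6%. The 10% after that held 23.8% of isolated and 18.8% of non-isolated regions, and the 10% beside the centre held 19.6% and 20.2%. The share of isolated regions was thus the lower one in the last 2 Mb and in the centre, and by little in the 10% beside the centre. It exceeded the other most in the class with 23.8%, and little in the outermost 10%. No intervals were computed for these 10% classes.

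Stretches without peaks made up a large part of the genome, and isolated regions were the smallest islands within them. There were 11178 gaps over 20000 bp between neighbouring peaks, which covered 32.2% of the chromosome spans. Splitting the clusters at these gaps gave islands of 1 cluster (the isolated ones) to more than 50. Islands of 2 clusters resembled isolated regions, with medians of 89.9 in replicate 1 and 95.5 in replicate 2 and 43.6% of clusters found in both captures. Islands of 11 to 20 clusters had medians of 106.5 and 112.1 and 55.6% found in both. Islands of more than 50 clusters numbered 880 and held 62065 merged regions, with medians of 139.2 and 145.7, a median width of 1499 bp and 70.4% found in both. Median score, median width and the percentage found in both captures were thus all higher in larger islands.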

How the data were processed

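Peak lists of the 2 captures were used, 1 list per library. Per the labels' protocols, DNA sheared to about 250 bp was tagged at 5hmC with an azide-bearing glucose, biotinylated by click chemistry, pulled down with streptavidin beads and given 12 cycles of PCR, and trimmed reads were aligned with BWA. The submitters' processing notes name BWA and danRer7. Peak names carry the name MACS; version, settings and control: not given in the sources used here. The deposited score per peak is the authors' value, and it was used to describe and rank regions.

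Overlapping peaks were merged, and gaps were counted in bases between peak edges, with Python 3.11.15, numpy 2.4.6, pandas 2.3.3 and scipy 1.17.1; plots used matplotlib 3.10.9. The higher score stands for a region with several peaks of a list. The distance functions were tested on simulated data with planted isolated regions. Named regions are the 10 strongest by mean score rank, the 10 most remote, the 10 widest, 3 on each side of the limit and the 5 with the most unequal scores. The regions and rules were chosen with earlier results of these data known. Coordinates count from 1. Alternatives covered the distance, score and overlap limits, the peaks that end isolation, chromosome 4, each list alone and matched comparisons.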

Additional observations from a re-analysis of the deposited data

How the results depend on the processing

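No ratio of isolated to non-isolated score or width crossed 1 in the alternatives run (24 score values, 10 width values). Of 69 alternative values over 8 results, 19 stayed near the reported value and 50 moved. Near means within 1.5 times for the number, within the Wilson interval for percentages, and otherwise within 1 SD between the lists (0.00702 for score ratios, 0.00407 for width ratios, 0.718 for the chromosome ratio) or, for rho, between chromosomes (0.126). These SDs are small, so slight shifts count as moved.

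The number of isolated regions, 957, was 928 with 50% overlap and 1026 with chromosome 4 kept whole, but moved with the distance limit, the score limit and the peaks that end isolation. It was 4205 (3.82% of merged regions) with a limit of 10 kb, 66 (0.0599%) with 50 kb, 2083 (3.98%) with peaks at or above the list median score and 4712 (4.28%) when regions of both captures alone ended isolation. With chromosome 4 whole, the percentage was 0.930. Leaving out 1 replicate gave 3497 to 3607 peaks (2.40 to 2.48%); peaks of the other list then neither end isolation nor are required, and 1439 of the 3607 and 1468 of the 3497 overlapped none.

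Score ratios, replicate 1 before replicate 2, were 0.726 and 0.730 at 10 kb, 0.641 and 0.719 at 50 kb, 0.791 and 0.778 above the median score, 0.731 and 0.716 for regions of 1 peak from each list, 0.769 and 0.736 within width classes, 0.730 and 0.691 within chromosomes, and 0.907 and 0.903 against regions with the nearest peak at 5 to 20 kb. With chromosome 4 whole the replicate 1 ratio was 0.708. With each list alone they were 0.730 in both. Judged in the other list, the replicate 2 ratio was 0.693. Width ratios were 0.858 at 10 kb, 0.814 at 50 kb, 0.872 above the median score, 0.850 with 50% overlap, 0.851 when regions of both captures ended isolation, 0.846 with chromosome 4 whole, 0.822 within chromosomes, 0.942 against regions at 5 to 20 kb, and 0.854 to 0.855 with 1 replicate left out.

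The percentage of isolated clusters found in both captures was 43.9 at 10 kb and 32.4 at 50 kb. The chromosome ratio was 3.53 at 10 kb, 3.42 above the median score, 3.73 when regions of both captures ended isolation, 4.998 with chromosome 4 whole, 3.56 without chromosome 4 and 3.64 to 4.65 with 1 replicate left out; at 50 kb some chromosomes had no isolated region, so it had no value. The chromosome 4 value rests on 6 regions. The alternatives without chromosome 4 and with isolation judged in the other list were chosen after seeing the data. No paired analysis was possible, since both captures are 1 condition and no values of the inputs, which carry the numbers 1 and 2 too, were available here. The lists give no read depth, so the space around an isolated region is not shown to lack 5hmC.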

Other observations

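The stretch of chromosome 4 from 28 Mb on, outside the rule, held 69 further regions of both captures with no other peak within 20000 bp. They made up 31.9% of the 216 merged regions there. Their median score was 81.3 in replicate 1 and 106.5 in replicate 2, their median width 1347 bp and their median distance to the nearest peak 45620 bp.

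Isolated clusters of 1 capture reached lower scores than isolated regions of both. The strongest found in replicate 1 alone was chromosome 2, 5247555 to 5249526, with a score of 204.1 and the nearest peak at 24252 bp. The strongest found in replicate 2 alone was chromosome 12, 12576648 to 12577931, with a score of 241.5 and the nearest peak at 24489 bp. Both were chosen after their values were seen.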
